A study of Mus musculus with 4 samples.

Results

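Brd1, Brd2, Brd3, Brd7, Brd8 and Brd9 are mouse genes for proteins with a bromodomain, and each was examined for occupancy by Eya1, a transcriptional coactivator of the early kidney. They are 6 of the 21951 protein-coding genes of the annotation used. The 6 were selected on measured peaks in these same libraries, so the presence, number and width of their peaks are given as a description, with no test. Chromatin immunoprecipitation followed by sequencing (ChIP-seq) was performed on E13.5 kidneys, with 2 Eya1 samples (replicate 1 and replicate 2), 1 Input sample and 1 IgG sample. The embryos carried the Eya1HA-FLAG knockin allele, so the protein pulled down with anti-FLAG beads was the tagged form made from the Eya1 locus, and the mice were kept on a mixed C57BL/6J and 129/Sv background. Each assay used whole kidneys pooled from many embryos, 80 kidneys per assay, and the cell types of the kidney were not separated. Nothing stated whether the replicates came from separate pools of embryos.

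A bromodomain is a protein fold that binds acetylated lysine, most often on histone tails, and so brings its protein to active chromatin. Brd2 and Brd3 belong, like the germ cell gene Brdt, to the BET family, whose members link acetylated chromatin to transcription by RNA polymerase II. The other Brd genes of the set belong to separate complexes. Brd1 (also called Brpf2) is a scaffold of the HBO1 and MOZ acetyltransferases, Brd7 belongs to the PBAF remodelling complex, Brd9 to the non-canonical BAF complex and Brd8 to the TIP60/NuA4 acetyltransferase complex.

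Each deposited list gives peak positions alone. The lists were of similar length, but the median peak width was 1069 bp in replicate 1 (168 to 5380 bp) and 188 bp in replicate 2 (117 to 2699 bp). Widths are therefore compared within a list. The lists carry no read count, height or score, and the depth behind them is unknown. Input and IgG signal was not analysed here, which leaves every peak without a background level. Peak lists hold no expression values, so the kidney label could not be checked against marker genes.

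A peak was assigned to a promoter when any base of it lay within 1 kb of an annotated transcription start site (TSS) of the gene in GENCODE release M21. By this rule 5 of the 6 Brd genes had a promoter peak in replicate 1, where 20.2% of all protein-coding genes had one. All 6 had a promoter peak in replicate 2, against 14.7% of all genes, and 5 had one in both replicates, against 11.5% of all genes. Since the genes were chosen by these peaks, nothing is read from the difference. The Brd genes held 5 peaks in replicate 1 and 12 in replicate 2, and 0 of these 17 peaks lay in a gene body more than 1 kb from every TSS. The farthest of them was the 171 bp replicate 2 peak of Brd1, 732 bp from its nearest TSS. The same share over all genes was not counted. The Brd genes have 3 to 19 TSS positions each, and more positions leave less of a gene beyond 1 kb, so nothing is read from the 0.

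The DNA under several replicate 2 peaks is shown first, because it makes visible a feature of many of these sites, runs of G and C with many CpG dinucleotides. The feature is not particular to the Brd genes, as the median over the replicate 2 list was 68.7% G+C. No Brd8 sequence is shown, and its replicate 2 peak was the poorest of the set at 57.1%. The sequences are from the reference mouse genome (GRCm38.p6, the assembly of mm10) and are written 5′ to 3′ on the strand of the gene, which is the minus strand for Brd1, Brd2, Brd3 and Brd7 and the plus strand for Brd9. Only stretches outside annotated exons are shown, which are parts of introns or, for Brd9, the bases just before the first TSS. In the Brd1, Brd2, Brd3 and Brd7 sequences capitals mark matches on either strand to GGGCGG, the core of the GC box bound by the SP family of factors. In the Brd9 sequence they mark CCGGAAG, a core recognised by ETS factors.
Brd1, whole narrower peak, chr15:88733328-88733498: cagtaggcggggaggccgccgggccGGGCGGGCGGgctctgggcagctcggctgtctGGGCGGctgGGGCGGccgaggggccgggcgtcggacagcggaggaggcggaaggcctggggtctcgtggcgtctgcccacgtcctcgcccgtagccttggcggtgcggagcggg
Brd1, part of the wider peak, chr15:88733659-88733858: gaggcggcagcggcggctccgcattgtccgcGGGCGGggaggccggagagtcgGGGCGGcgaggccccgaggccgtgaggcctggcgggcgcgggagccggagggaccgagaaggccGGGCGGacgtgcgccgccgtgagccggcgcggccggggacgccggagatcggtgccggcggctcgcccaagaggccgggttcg
Brd2, intron part of the 272 bp peak, chr17:34120051-34120194: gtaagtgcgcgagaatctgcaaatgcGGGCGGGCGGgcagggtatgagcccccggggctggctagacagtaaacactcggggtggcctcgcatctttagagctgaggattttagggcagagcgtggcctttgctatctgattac
Brd3, intron part of the 191 bp peak, chr2:27475399-27475576: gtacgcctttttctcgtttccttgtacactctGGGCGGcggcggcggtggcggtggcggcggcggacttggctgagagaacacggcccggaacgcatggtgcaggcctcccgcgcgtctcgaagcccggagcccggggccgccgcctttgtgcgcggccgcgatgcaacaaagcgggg
Brd7, intron part of the peak, chr8:88361711-88361905: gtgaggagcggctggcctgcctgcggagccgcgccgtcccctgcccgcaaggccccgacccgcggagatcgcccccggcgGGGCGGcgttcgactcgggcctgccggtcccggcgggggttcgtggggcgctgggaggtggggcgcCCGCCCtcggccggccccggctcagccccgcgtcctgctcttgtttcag
Brd9, part upstream of the TSS, chr13:73937785-73937810: gccccaccctgacCCGGAAGcacttg
The narrower Brd1 peak held 4 GGGCGG matches in 171 bp, including an overlapping pair, and 79.5% of its bases were G or C. The Brd7 stretch is a complete intron, from its gtgag donor to its cag acceptor, and 80.0% of its bases were G or C. The Brd2 stretch begins at the donor of an intron (gtaag) and was less rich, at 58.3%.

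Brd2, a BET protein that binds acetylated histone H4, had the widest Eya1 peak of the set in each replicate. Its gene lies on the minus strand at chr17:34112023-34122634 and has 19 annotated TSS positions. In replicate 1 a single peak of 5227 bp covered chr17:34117771-34122997, from 363 bp before the most upstream TSS to 4863 bp after it. Only 2 peaks of the replicate 1 list were wider, and it was 4.89 times the median width of its list. The peak took in 9 of the 19 TSS positions, 3536 bp of exon annotated as untranslated, 1268 bp of intron and only 26 bp of coding exon, so it spanned the long untranslated 5′ part of the gene and not its coding body.

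In replicate 2 the same stretch of Brd2 was listed as 5 separate peaks. Going downstream from the first TSS, their widths were 195, 588, 208, 272 and 170 bp. All 5 lay inside the replicate 1 peak and together covered 1433 bp, or 27.4% of it. The gaps between neighbours were 527, 99, 59 and 1027 bp. The 588 bp peak at chr17:34120592-34121179 was at least as wide as 95.6% of the list, while the 170 bp peak was below the list median. None of the 5 touched the most upstream TSS, and the nearest began 733 bp downstream of it.

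Of the 2430 replicate 1 peaks that overlapped a replicate 2 peak, 432 (17.8%) overlapped 2 or more and 7 overlapped 5, the highest number found. By summed width of promoter peaks, Brd2 was of rank 4 among 4444 genes in replicate 1 and of rank 12 among 3234 genes in replicate 2. The 3 protein-coding genes nearest to Brd2 in these sums, on a log10 scale over the 2 samples, were Igf2bp1 (4024 bp and 1241 bp in replicates 1 and 2), Nr2f2 (5184 bp and 1962 bp) and Midn (5380 bp and 1026 bp).

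**Figure D1:**
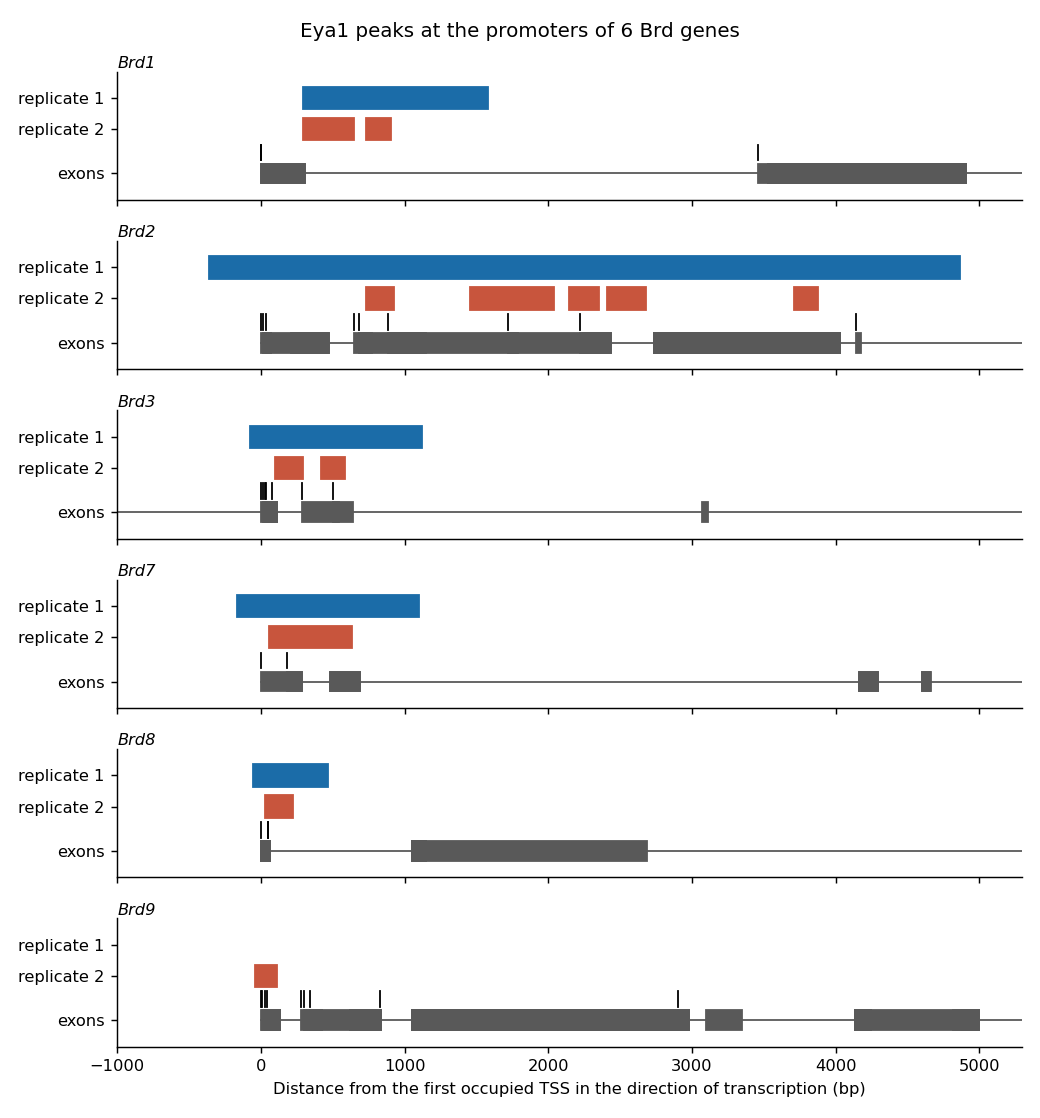
Eya1 peaks at the 6 Brd genes, drawn to scale along the direction of transcription, with the distance in bp from the most upstream TSS that has a peak within 1 kb on the horizontal axis. Blue boxes are replicate 1 peaks, red boxes replicate 2 peaks, black ticks annotated TSS positions and grey boxes exons of any transcript. The 5227 bp Brd2 peak holds 5 narrow replicate 2 peaks, and Brd9 has a replicate 2 peak alone.

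The Brd2 region could not be assigned to Brd2 alone. H2-DMa, a gene of the major histocompatibility complex class II pathway, is transcribed in the opposite direction, with its nearest TSS 188 bp from the most upstream Brd2 TSS. The replicate 1 peak contained a TSS of H2-DMa and one of the antisense gene CR974462.3, and 4 of the 5 replicate 2 peaks lay within 1 kb of an H2-DMa TSS. The 588 bp peak was the exception, but it lay 24 bp from a TSS of CR974462.3. Peak lists carry no strand, so Eya1 at these overlapping genes cannot be told apart.

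Brd3, the BET protein known for binding acetylated GATA1 in blood cells, had an occupied start site well inside its gene record. The gene lies on the minus strand at chr2:27445579-27507662, and the first TSS with a peak nearby was 31976 bp downstream of the 5′ end of that record. No peak of either list was within 1 kb of the distant 5′ end. Around the inner start, replicate 1 listed a peak of 1195 bp (chr2:27474568-27475762) that contained 7 of the 10 TSS positions of the gene. Replicate 2 listed peaks of 191 bp and 165 bp inside it, separated by 129 bp, and each contained 1 TSS. The replicate 1 peak was at least as wide as 59.9% of its list, and the replicate 2 widths stood on either side of their list median.

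Brd2 thus had the larger summed promoter peak width of the pair in each replicate (5227 bp and 1433 bp in replicates 1 and 2, where Brd3 had 1195 bp and 356 bp). With 1 value per gene and replicate, no spread can be put on these differences. Brdt, whose expression is known mainly from the testis and which was not among the 6, had no promoter peak in either list.

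Brd1, the acetyltransferase scaffold, differed from the others in the position of its peaks. Its gene lies on the minus strand at chr15:88687034-88734233 and has 6 TSS positions, and none of them was inside a peak of either replicate. The replicate 1 peak of 1287 bp (chr15:88732653-88733939) began 294 bp downstream of the first TSS and ended 1580 bp downstream of it, with 1276 bp of its length in the first intron. Both replicate 2 peaks lay over the proximal part of that stretch. The first, of 354 bp (chr15:88733589-88733942), began 291 bp downstream of the TSS and extended 3 bp past the replicate 1 peak, and the second, of 171 bp, followed after a gap of 90 bp. The upstream edges of occupancy at Brd1 in the 2 lists were 3 bp apart.

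Brd7, the PBAF subunit that carries a single bromodomain, had a single peak in each replicate, as did Brd8. Its gene lies on the minus strand at chr8:88331039-88362194. Replicate 1 listed 1268 bp (chr8:88361096-88362363), from 169 bp upstream of the TSS to 1098 bp downstream, with 2 TSS positions inside. Replicate 2 listed a single peak of 577 bp (chr8:88361564-88362140) inside it, from 54 to 630 bp downstream of the TSS. That peak was at least as wide as 95.3% of its list and covered 45.5% of the replicate 1 peak, the highest share among the 5 genes with both. Unlike the Brd2 peaks, it held 196 bp of coding exon, beside 186 bp of untranslated exon and 195 bp of intron.

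Brd9, a defining subunit of the non-canonical BAF complex, was called in replicate 2 alone. Its gene lies on the plus strand at chr13:73937811-73960895. The only peak was of 156 bp (chr13:73937767-73937922), the narrowest of the 12 in replicate 2, and it reached from 44 bp upstream of the TSS to 111 bp downstream with 4 of the 12 TSS positions inside. In replicate 1 the nearest listed peak was 173016 bp away. The promoter is shared with Trip13, a gene of the meiotic and spindle checkpoints transcribed in the other direction from a TSS 27 bp away. A list that leaves out a site does not show the absence of signal there, since the threshold behind each list and the signal below it are not in the files.

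The widths of all 17 peaks are set against their lists in the plot of peak widths. The median over the Brd genes was 1268 bp in replicate 1 (522 to 5227 bp, 5 peaks) beside 1069 bp for the whole list, and 195.5 bp in replicate 2 (156 to 588 bp, 12 peaks) beside 188 bp for the whole list. In replicate 1, 4 of 5 peaks, and in replicate 2, 8 of 12, were at or above the median of their list. Without Brd2, the replicate 1 peaks were between 522 and 1287 bp, below the 1907 bp that marked the 90th percentile of the list.

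**Figure D2:**
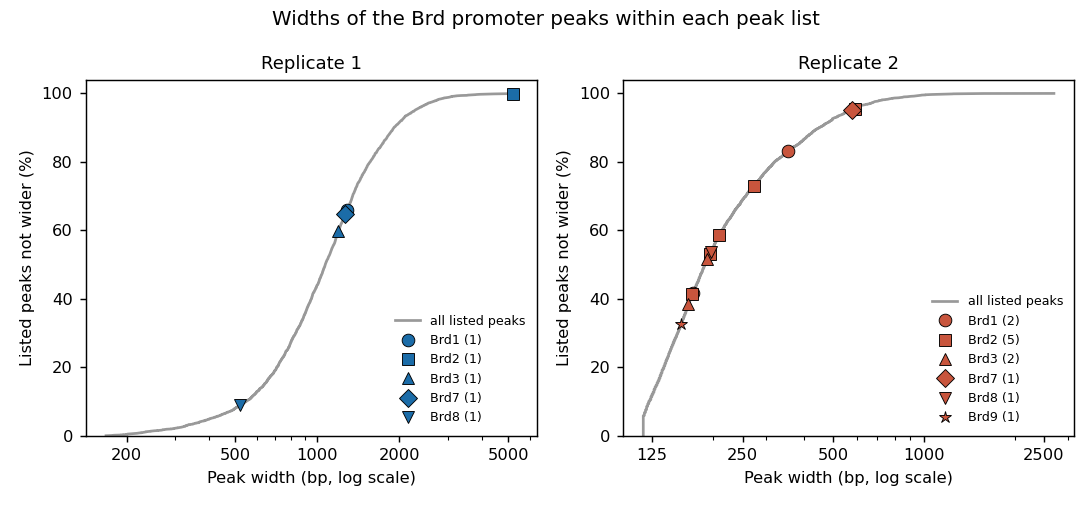
Width of each Brd promoter peak (bp, log scale) against the percentage of peaks in the same list that are not wider, with replicate 1 on the left and replicate 2 on the right. The grey line is the whole list, symbols are the peaks of each gene and the numbers in brackets count them. In replicate 1, Brd2 at 5227 bp stands near the top of the list, Brd8 at 522 bp near the bottom and the other 3 genes just above the middle.

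The number and placing of the peaks also varied among the 6 genes. Brd1, Brd2 and Brd3 had 2 or more promoter peaks in replicate 2, that is 3 of 6, against 18.5% of the genes with any promoter peak there. A TSS lay inside a replicate 1 promoter peak in 4 of 5 Brd genes, where Brd1 was the exception, against 90.9% of all genes with such a peak. In replicate 2 a TSS lay inside a promoter peak in 5 of 6, against 33.5% of all genes with such a peak. Every replicate 2 peak began downstream of the most upstream occupied TSS in 5 of 6, where Brd9 was the exception, against 77.1% of all genes. The Brd genes have between 3 and 19 TSS positions each, and a gene with many has more chances to hold one inside a peak.

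At the Brd genes with peaks in both replicates, the peaks overlapped but differed in extent. All 5 Brd genes with a promoter peak in both replicates had peaks that overlapped, and 10 of the 12 Brd peaks in replicate 2 were contained in one of replicate 1. The remaining pair were the Brd1 peak that passed its edge by 3 bp and the Brd9 peak. These shares were not counted over all genes or all replicate 2 peaks. Replicate 1 peaks were wider as a list, so nothing is read from the overlap. The summed promoter peak width was 2.2 (Brd7), 2.5 (Brd1), 2.7 (Brd8), 3.4 (Brd3) and 3.6 (Brd2) times larger in replicate 1 than in replicate 2. Over the 2520 protein-coding genes with both, the median of this ratio was 4.19.

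Base composition was not itself used to choose the genes, but they were chosen for having peaks. Listed peaks as a class were rich in G+C, with medians of 62.8% and 68.7% in replicates 1 and 2. The median over all protein-coding promoters was 55.0%, so values above it are not independent of the choice. The 12 replicate 2 peaks of the Brd genes were between 57.1% and 79.9% G+C, with a list median of 68.7%. The peaks at Brd1 were the richest (79.5% and 79.9%), followed by the 208 bp Brd2 peak (76.9%), and those at Brd2 were spread from 58.5% to 76.9%. The ratio of observed to expected CpG ran from 0.574, in the Brd2 peak nearest to the first TSS, to 1.14 in the wider Brd1 peak and in the Brd3 peak nearest to the TSS, with a list median of 0.811. In the 300 bp promoter windows (250 bp before to 50 bp after the most upstream occupied TSS), G+C was 81.0% at Brd3, 73.0% at Brd2, 72.0% at Brd9, 68.3% at Brd1, 62.7% at Brd7 and 47.3% at Brd8, where the median over protein-coding promoters was 55.0%. Brd8 was the one below that median. Promoters with a peak were not taken as a separate reference.

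**Figure D3:**
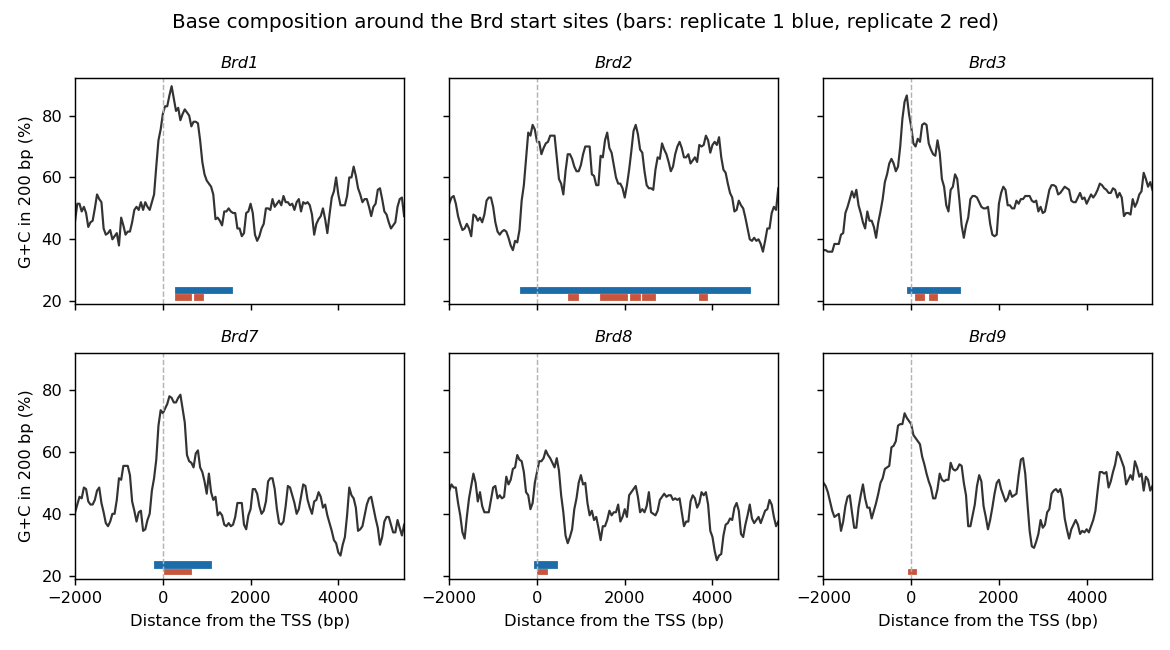
G+C content (%) in 200 bp windows against distance in bp from the most upstream occupied TSS (dashed line) of each Brd gene, with replicate 1 peaks as blue bars and replicate 2 peaks as red bars. The highest windows are at 89.5% for Brd1 and 60.5% for Brd8, and at Brd2 the composition stays high over most of the 5227 bp replicate 1 peak.

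The profile of base composition differed among the genes. At Brd1 the highest 200 bp window (89.5%) was centred 200 bp downstream of the TSS, just before the listed peaks begin. At Brd7 it was centred 400 bp downstream (78.5%), inside the peaks of both replicates. At Brd2 and Brd3 the highest windows were centred 100 bp upstream of the TSS, a position inside the replicate 1 peak of Brd2 and just before that of Brd3. At Brd9 the highest window was 150 bp upstream, before its replicate 2 peak. Peaks and local G+C content were therefore not superimposed in the same way at each gene, and the part of base composition in the peak calls was not tested.

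Matches to 11 transcription factor motifs were counted on both strands. GGGCGG occurred in the 200 bp window on the midpoint of 9 of the 12 replicate 2 peaks and 3 of the 5 replicate 1 peaks, beside 46.7% and 50.2% of all windows of the same kind in the 2 lists. Where a peak is narrower than 200 bp, its window reaches beyond it. The window of the 165 bp Brd3 peak held 1 match and the peak itself 0. The reverse was so at the 588 bp Brd2 peak. Whole replicate 2 peaks with a match were also 9 of 12. Within whole peaks the count was 18 matches in the 5227 bp of Brd2, 10 in Brd1, 7 in Brd3, 6 in Brd7 and none in Brd8 (replicate 1). ATGGCGG, the core of the YY1 site, was in 3 of the 12 replicate 2 windows, at Brd2 and Brd3, beside 6.63% of all windows. GNAACCTGA was searched for as a site of the homeodomain factors that bring Eya1 to DNA. It was in 0 of the 12 replicate 2 windows and 0 of the 5 replicate 1 windows, beside 0.504% and 0.491% of all. It also had 0 matches in any of the 17 whole peaks, for which no share over the lists was counted. A match is a property of the sequence and does not measure binding, and the absence of these letters says nothing of the factor.

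The remaining motifs were sparse in the Brd peaks. CCAAT (NF-Y), CCGGAAG (ETS) and TATAAA were each in 1 of the 12 replicate 2 windows, beside 10.4%, 4.44% and 1.42% of all windows. CACGTG (E-box), TGACGTCA (CRE), TTTCGCG or TTTGGCG (E2F) and the NRF1 palindrome were in 0 of the 12, beside 2.38%, 0.528%, 1.85% and 0.0720% of all windows. GGGCGG was also in the promoter windows of Brd1 (4 matches), Brd3 (6), Brd7 (2) and Brd9 (4) and not in those of Brd2 and Brd8, that is in 4 of 6, while 43.0% of all protein-coding promoter windows held it. As with G+C, this count is not independent of the choice of genes.

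RE1, the 17 bp element recognised by the repressor REST, was searched with at most 2 mismatches. It was in 0 of the 12 replicate 2 midpoint windows of the Brd genes, beside 16.8% of all replicate 2 windows, and in 0 of the 5 replicate 1 windows, beside 5.40%. When whole peaks were searched, the 588 bp Brd2 peak held 2 matches, each at the limit of 2 mismatches and both in untranslated exon. Of 4164 windows of 588 bp centred on replicate 2 peaks, 873 held at least 1 match and 106 (2.55%) held 2 or more. The 2 Brd2 elements are shown because the mismatched bases, in capitals, tell how far they stand from the consensus. Each is written 5′ to 3′ on the strand that matches, the minus strand for the first and the plus strand for the second.
Brd2, element at chr17:34120779-34120795: tCtagGacctaggccag
Brd2, element at chr17:34121085-34121101: ttcCgcacctgggccTg
They begin 1839 and 1533 bp downstream of the first Brd2 TSS, on either side of the peak midpoint. A 200 bp window on the midpoint holds neither element whole. Its edge cuts through the first, so the 0 at this peak depends on the window size.

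Among the other genes with a bromodomain, occupancy was common but not general. Of 33 such genes examined, 16 had a promoter peak in replicate 1 (48.5%, against 20.2% of all genes), 17 in replicate 2 (51.5%, against 14.7%) and 12 in both (36.4%, against 11.5%). The 10 of these 12 with the widest replicate 1 peaks were Ep300 (2414 bp), Ash1l (2225 bp), Brwd1 (1771 bp), Zmynd11 (1749 bp), Atad2b (1591 bp), Bptf (1399 bp), Trim33 (1375 bp), Baz2b (1354 bp), Baz2a (1072 bp) and Phip (962 bp). Ep300, which encodes a histone acetyltransferase, was the nearest to Brd2 in width. The other 2 were Crebbp and Pbrm1, in which the peaks of the replicates did not overlap.

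Another 12 of the 33 genes had no promoter peak in either list, among them Brdt, Brpf1, Atad2, Taf1, Trim24 and Zmynd8. Like Brd9, 5 genes had a promoter peak in replicate 2 alone (Brpf3, Baz1b, Kat2b, Kmt2a and Trim28), and 4 had one in replicate 1 alone (Cecr2, Kat2a, Smarca2 and Smarca4). At Trim28 replicate 1 did list a peak in the gene record more than 1 kb from every TSS.

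**Figure D4:**
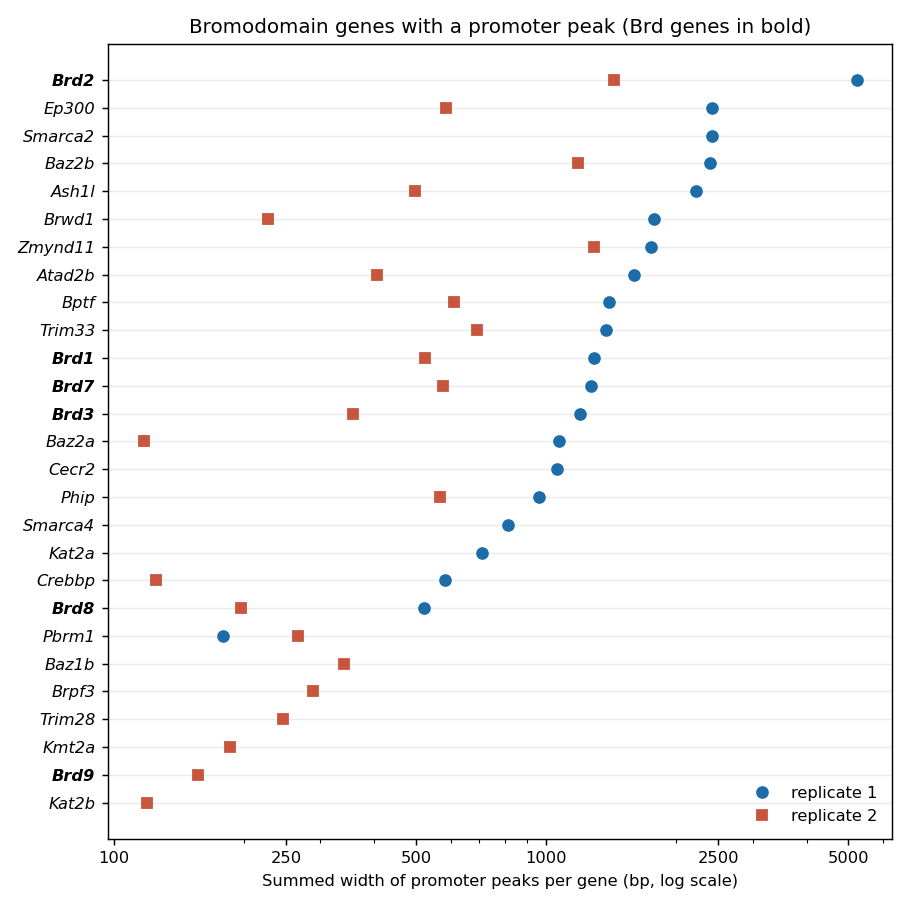
Summed width of the promoter peaks of each bromodomain gene examined that had a peak in either replicate (bp, log scale), with replicate 1 as blue circles and replicate 2 as red squares. Brd2 is the highest in both replicates, and Brd9 is among the genes with a replicate 2 value alone.

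Partners of the Brd proteins and related genes of their complexes were counted in the same way, in lists that share some genes. The shares of all protein-coding genes to set beside them are again 20.2% in replicate 1, 14.7% in replicate 2 and 11.5% in both. Of 12 PBAF genes, partners of Brd7, 11 had a promoter peak in replicate 1 (91.7%), 9 in replicate 2 (75%) and 9 in both (75%). Smarcc1 (1752 bp) and Smarce1 (1688 bp) had the widest replicate 1 peaks of this list. Of 11 genes of the non-canonical BAF complex, partners of Brd9, all 11 had one in replicate 1, 6 in replicate 2 (54.5%) and 6 in both (54.5%). Here the widest replicate 1 peaks were at Bicral (2614 bp) and Bcl7a (2203 bp). Bcl7a had no promoter peak in replicate 2. Brd9 itself had no replicate 1 peak.

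Lists for the complexes of Brd1 and Brd8 and for the BET proteins gave the following counts. They are to be set beside the same shares of 20.2%, 14.7% and 11.5%, and differences among the lists were not tested. The first list holds other scaffold genes, such as Brpf1 and Brpf3, as well as partners of Brd1. Of 11 genes of the HBO1 and MOZ acetyltransferases, 6 had a promoter peak in replicate 1 (54.5%), 5 in replicate 2 (45.5%) and 3 in both (27.3%). The widest in replicate 1 were at Kat6b (2891 bp) and Kat6a (1171 bp). Of 17 TIP60/NuA4 genes, 14 had one in replicate 1 (82.4%), 6 in replicate 2 (35.3%) and 6 in both (35.3%). Mbtd1 (2532 bp) and Epc2 (1881 bp) had the widest in replicate 1, and neither had a promoter peak in replicate 2. The last list, of 15 genes, holds P-TEFb, its regulators and other factors tied to BET proteins, Nsd3 among them. Of these, 12 had one in replicate 1 (80.0%), 8 in replicate 2 (53.3%) and 8 in both (53.3%). Aff4 (2144 bp) and Nsd3 (2113 bp) had the widest in replicate 1.

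Brd8, the subunit of the TIP60/NuA4 acetyltransferase, had the smallest replicate 1 peak of the set. Its gene is on the minus strand at chr18:34598615-34624601. In replicate 1 the peak was of 522 bp (chr18:34624137-34624658) and at least as wide as only 8.93% of its list, from 57 bp upstream of the TSS to 464 bp downstream, with all 3 TSS positions inside. In replicate 2 a peak of 196 bp (chr18:34624375-34624570) lay inside it, just above the median of its list. The TSS of Kif20a, a kinesin gene of cytokinesis, is 12 bp away in the opposite direction, and both peaks lay within 1 kb of it. Brd8 was also the poorest in G+C among the 6, with 58.0% in the replicate 1 peak, 57.1% in the replicate 2 peak and 47.3% in the promoter window, and no GGGCGG match in any of these.

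Other genes had nearly the same summed promoter widths as the Brd genes. Nearest on a log10 scale over the 2 samples were Ctbp1, Ptp4a2 and Ptbp2 for Brd1, Glud1, Shld2 and Tm9sf2 for Brd3, Pcbp2, Sf1 and Ccdc47 for Brd7, and Lhx3, Eid2 and Olfm3 for Brd8. Ctbp1, for example, had 1289 bp and 524 bp in replicates 1 and 2, beside 1287 bp and 525 bp for Brd1. Glud1 and Shld2 had identical sums (1182 bp and 354 bp), and whether these are the same peaks was not checked. The nearest gene to Brd2 was farther off than that of any other (log10 distance 0.130 against 0.0280 or less), as few genes have sums of that size.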

How the data were processed

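Per the labels and methods, anti-FLAG ChIP-seq of pooled E13.5 kidneys gave 2 Eya1 libraries, and reads were aligned to mm10. The methods name Bowtie for the alignment before peak calling and HISAT2 for the RNA-seq reads of the same study. The labels name HISAT2, and which was used for these lists was not settled. The authors called peaks with MACS against input or IgG at several P value thresholds. The threshold and control behind each list are not given in the sources used here. They deposited 1 list per Eya1 replicate (4277 peaks in replicate 1, 4175 in replicate 2) with chromosome, start and end alone, that is coordinates with no score or count. The depth is thus unknown, and a wide peak in 1 list cannot be scaled to the other.

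Coordinates were made 1-based and compared with 93526 TSS positions of 21951 protein-coding genes (GENCODE M21). A promoter peak lay within 1 kb of a TSS, and peaks of the replicates overlapped when they shared 1 bp. Assignments were checked with bedtools 2.31.1 and tested on simulated peaks. Sequence was read from GRCm38.p6 with pysam 0.24.0, and 11 motifs were searched on both strands. Python 3.11.15, numpy 2.4.6, pandas 2.3.3 and matplotlib 3.10.9 were used. Named genes were the 6 Brd genes, Brdt, the bromodomain genes with promoter peaks in both replicates (values for the 10 widest in replicate 1), the 2 widest of each partner list, genes sharing a promoter peak, and the 3 genes nearest in summed width. Bromodomain genes with promoter peaks in 1 list or neither were named after their values were seen. The Brd genes and the gene lists were chosen with earlier results of these data known. An item that the naming rule also covered is not reported here. Groups came from the sample titles. Alternatives covered the distance and TSS set, the merging of peaks, narrow peaks, the overlap rule and leaving out each replicate.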

Additional observations from a re-analysis of the deposited data

How the results depend on the processing

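Of 64 alternative values for 8 results, 63 stayed within 1.5-fold (counts) or 10% (median widths) of the reported value. The exception was the median width of the Brd promoter peaks in replicate 2, which was 240 bp in place of 195.5 bp when only the wider peaks of each list (at or above its median) were kept, as that setting itself removes narrow peaks. The same setting left 8 of the 12 replicate 2 peaks and 8 of the 12 other bromodomain genes with both, each exactly at the 1.5-fold limit. Counts of 5 or 6 among 6 chosen genes also had little room to rise. With the 5′ end of the gene record as the only TSS, Brd3 was lost and 4 Brd genes had promoter peaks in both replicates. Merging peaks within 100 bp turned the 12 replicate 2 peaks into 9. Leaving out a replicate gave 5 to 6 Brd genes and 16 to 17 other bromodomain genes with a promoter peak in the list that remained. Brd9 rests on replicate 2 alone. No paired analysis was possible because no test was made and the 2 Eya1 samples form a single group. Without depth, scores or control signal, differences in the number and width of peaks between the replicates cannot be separated from differences in how the lists were called.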
